A study of Mus musculus with 10 samples.

Results

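Cell cycle and DNA replication genes were examined in RNA-seq data of YFP-positive cells sorted by FACS from the spinal cord of mouse embryos at e10.5. The list holds 46 genes chosen by name for their role in the cycle: 5 that drive G1, the growth phase before DNA synthesis, 20 of the G1/S transition and S phase, the phase of DNA synthesis, and 21 of G2 and mitosis (G2/M). All 46 were among the 17858 genes tested, of 48974 genes with a place in the counts. Each had at least 108 counts in every sample, so none was lost to the filter on low counts. There were 5 control samples, which were Oc1+/Flox and Oc2+/Flox, and 5 cdKO samples, which were Oc1-/Flox and Oc2-/Flox, and all were Olig2-Cre+/- and Rosa26R-YFP+/-. All embryos therefore carried Olig2-Cre, the YFP reporter and a floxed allele of Oc1 and of Oc2 (Onecut transcription factors), and the second allele of each gene was wild-type in control and null in cdKO embryos. Olig2-Cre acts in the progenitors that give rise to spinal motor neurons (MNs), and the study also saw YFP ventral to the MNs, in cells it took for V3 interneurons (INs). The sort gate was therefore set by lineage and took in dividing cells as well as neurons.

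The deposited values are counts on parts of exons, here summed to genes and given as CPM, counts scaled to the size of the library, after TMM scaling, which corrects for differences in library composition. Total counts ranged from 63932395 to 107709534 in control samples and from 72315782 to 84249157 in cdKO samples. Exon 1 of Oc1 (chromosome 9, 74861921 to 74863401, GRCm38) had 63 to 210 counts in control and 0 to 17 counts in cdKO samples. The samples are labelled as spinal MNs, and MN genes were present in each: Isl1, the LIM homeobox gene of young MNs, ranged from 95.0 to 344 CPM and Mnx1 from 29.6 to 72.0 CPM. Chat, for the enzyme that makes acetylcholine, was low, at 1.12 to 11.2 CPM. Progenitor genes were present as well. Sox2 ranged from 25.1 to 58.1 CPM, Olig2 from 26.1 to 87.1 CPM and the Notch target Hes5 from 555 to 1922 CPM. The sorted cells thus held RNA of progenitors and of MNs in every sample. In such bulk RNA, fewer cells of a type and less RNA per cell cannot be told apart. Nothing in the labels says whether a sample was 1 embryo or a pool, so p-values measure only the spread between these samples.

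Neural progenitors of the embryonic spinal cord divide next to the ventricle, and a daughter that leaves the cycle becomes a postmitotic neuron, which does not divide again. Cyclins D with Cdk4 and Cdk6 start the cycle in G1, cyclins E with Cdk2 open S phase, and cyclins A and B with Cdk1 take the cell into mitosis. Transcripts of S phase genes and of mitotic genes come in successive waves, the former through E2F factors, the latter through the CHR and CCAAT elements of their promoters.

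The promoters of the members carried these letters at different rates, and some are printed to show what sets the S and the G2/M genes apart in sequence. RefSeq promoters (GRCm38.p6, 250 bases before to 50 bases after a start) were found for 35 of the 46 genes, 38 promoters in all, and searched on both strands. The CHR letters TTTGAA were present in 11 of 16 G2/M promoters (68.8%), in 3 of 18 S promoters (16.7%) and in 16% of all 21263 protein-coding promoters. CCAAT was found in 15 of 16 G2/M promoters (93.8%), 13 of 18 S promoters (72.2%) and 38.2% of all. The 11 G2/M genes with a CHR match also had CCAAT. E2F letters (TTTCCCGC, TTTCGCGC, TTTGCCGC or TTTGGCGC) were present in 8 of 18 S promoters (44.4%), 1 of 16 G2/M promoters (6.2%) and 2.9% of all. Matches to different motifs shared a base in 1 promoter of the list. A match is only a run of letters, not a bound site. In the following 30-base windows, written 5′ to 3′ on the strand of the gene, the CHR letters or their complement are in capitals for genes of mitosis.
Mki67, chr7:135716460-135716489, minus strand: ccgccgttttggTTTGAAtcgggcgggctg
Cdk1, chr10:69352910-69352939, minus strand: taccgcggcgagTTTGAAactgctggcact
Cdc20, chr4:118437344-118437373, minus strand: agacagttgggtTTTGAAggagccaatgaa
Top2a, chr11:99024195-99024224, minus strand: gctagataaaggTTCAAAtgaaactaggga
Ube2c, chr2:164769888-164769917, plus strand: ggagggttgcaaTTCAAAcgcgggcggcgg
Plk1, chr7:122159453-122159482, plus strand: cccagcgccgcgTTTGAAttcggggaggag

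For genes of S phase, the E2F letters or their complement are in capitals in the windows below, which were chosen because 4 of them belong to subunits of the same replicative helicase.
Mcm3, chr1:20820275-20820304, minus strand: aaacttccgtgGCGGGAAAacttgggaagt
Mcm5, chr8:75109349-75109378, plus strand: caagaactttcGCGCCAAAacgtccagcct
Mcm6, chr1:128359734-128359763, minus strand: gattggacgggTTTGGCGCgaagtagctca
Mcm7, chr5:138171849-138171878, minus strand: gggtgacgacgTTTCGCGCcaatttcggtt
Cdc6, chr11:98908002-98908031, plus strand: gccggtggagaGCGGGAAAtcgcctggggt

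The comparison asked whether genes of the cell cycle differed between cdKO and control YFP-positive cells. None of the 46 passed. By the quasi-likelihood test of edgeR, with Benjamini-Hochberg adjustment over every gene tested, 0 members had an adjusted p under 0.05 (background: 0 genes, 0%), and their smallest adjusted p was 0.936. Over all genes tested in that fit the smallest adjusted p was 0.082, so it called no Onecut gene either. The study listed Oc1 and Oc3, another Onecut gene, with an adjusted p under 0.05 in its own comparison. That no member passed does not show that none changed. At an unadjusted p under 0.05, 2 members were lower in cdKO and 0 were higher, Cenpf and Cenpe, beside 0.818% of all genes tested on the lower side and 4.17% on the higher side (4.99%, or 891 genes, in all). DESeq2 called 20 genes at an adjusted p under 0.05 (0.0936% of those tested) and limma-voom 3, and no member was among them. Control and cdKO values of all 46 members overlapped, as did those of all genes but 0.403% (0.179% higher and 0.224% lower in cdKO).

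Most members lay slightly below 0 in the fitted log2 fold change of cdKO against control. Values were negative for 37 of 46 members (80.4%) and for 51.8% of all genes tested. The median was -0.22 over the members and -0.02 over all genes, with a median standard error of 0.39 per member. By list, the median was 0.00 for G1, -0.20 for S and -0.27 for G2/M genes. Part of this rested on cdKO replicate 5: without it, 31 members were negative, the median was -0.08 (0.00 over all genes), and 0 members reached an unadjusted p under 0.05 (of all genes, 1.77% on the lower and 0.589% on the higher side). Many members varied together across samples, so their fold changes are not independent of each other.

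**Figure D1:**
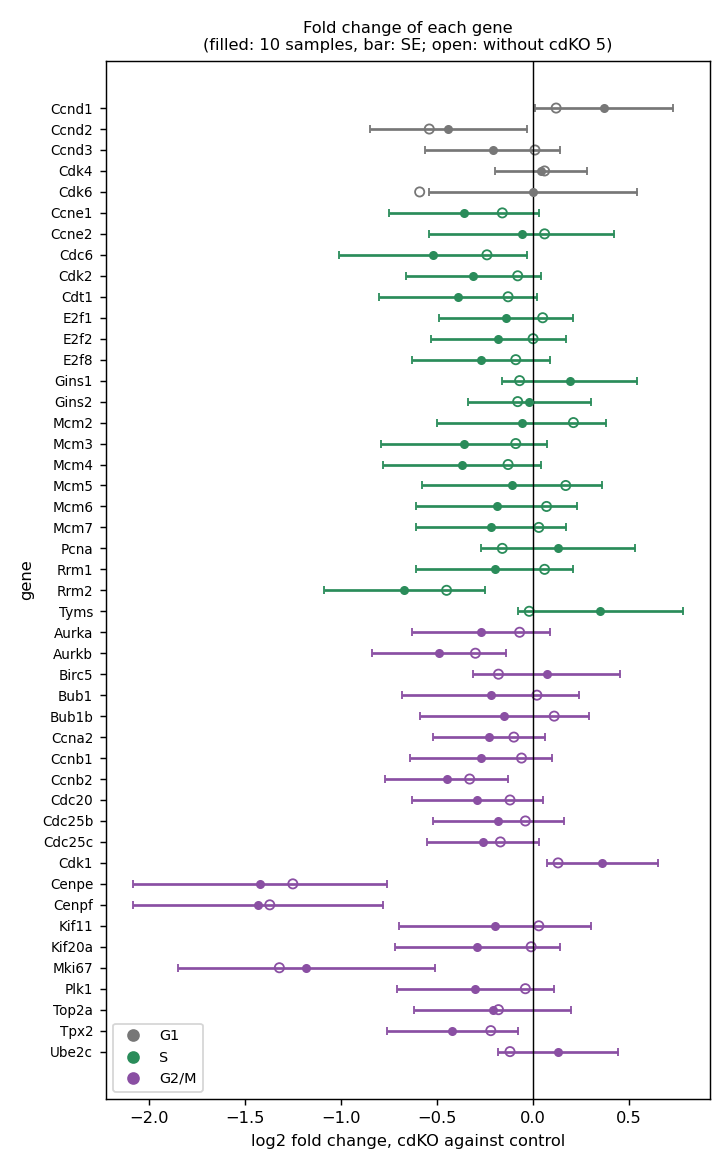
Fitted log2 fold change of cdKO against control for the 46 genes, by list; filled points and bars are the estimate and its standard error over 10 samples, open points the estimate without cdKO replicate 5. Filled points lie below 0 for 37 genes and open points for 31, and most bars cross 0.

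Genes of the G1 list differed little between the groups on average. Cdk4, the kinase that D cyclins bind, was the most abundant member per length, with a mean of 618 CPM per kb of counted exon. Its level was 1863, 2506, 1797, 1587 and 2150 CPM in control replicates 1 to 5 and 2385, 1913, 2108, 1801 and 1975 CPM in cdKO replicates 1 to 5. The highest and lowest samples, both control, differed by 1.58 times, the narrowest range among the members. The cdKO mean was 1.03 times the control mean (log2 fold change 0.04, standard error 0.24, exact two-sided permutation p = 0.698). Cdk6, its paralog, was the least abundant member per length, at 0.223 CPM per kb. It had between 1.08 and 7.37 CPM, and the fitted log2 fold change was 0.00 with a standard error of 0.54. A read was counted on each bin, or part of an exon, that it overlapped. Ranks by CPM per kb, here and below, thus also depend on how a gene is split into bins.

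The D cyclins did not follow one another. Ccnd1 (cyclin D1, chromosome 7, 144929931 to 144939925, minus strand) had 13.9, 28.8, 19.6, 9.996 and 22.9 CPM in control and 17.9, 20.2, 16.2, 28.2 and 40.1 CPM in cdKO replicates 1 to 5. The highest value belonged to cdKO replicate 5 and the lowest to a control, with all other values mixed. The log2 fold change was 0.37 (standard error 0.36, exact permutation p = 0.325), and 0.12 without cdKO replicate 5. Of its counts, 45.9% lay on bins shared with another gene, and over bins of Ccnd1 alone the log2 fold change was 0.08. Ccnd2 (cyclin D2) had a higher mean level per length, 31.95 against 4.62 CPM per kb, with 174, 155, 487, 374 and 539 CPM in control and 115, 344, 195, 294 and 330 CPM in cdKO samples. Both groups spread widely, and the lowest value was that of cdKO replicate 1 (log2 fold change -0.44, standard error 0.41, exact permutation p = 0.468). Ccnd3 (cyclin D3) had 158 to 343 CPM in control samples and 210 to 282 CPM in cdKO replicates 1 to 4, with 75.1 CPM in cdKO replicate 5. Its log2 fold change of -0.21 (standard error 0.35) became 0.01 without that sample.

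Licensing genes, which load the MCM helicase onto origins before S phase, were alike in range between the groups in 9 samples and far lower in cdKO replicate 5. Mcm2 (chromosome 6, 88883474 to 88898780, minus strand), a helicase subunit, had 364, 756, 524, 452 and 309 CPM in control and 666, 544, 497, 511 and 87.7 CPM in cdKO replicates 1 to 5. Apart from cdKO replicate 5, the cdKO values lay inside the control range. The log2 fold change was -0.06 with a standard error of 0.44 (exact permutation p = 0.825), and 0.21 with a standard error of 0.26 without cdKO replicate 5, so its direction rests on that sample. Mcm3 to Mcm7 had 42.2 to 146 CPM in cdKO replicate 5, and each was lowest there. That sample had between 0.128 times (Mcm5) and 0.236 times (Mcm4) the mean of the other 9 samples for the 6 MCM genes.

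The loading factors followed the helicase. Cdc6 had 41.1, 87.6, 77.1, 71.4 and 167 CPM in control and 54.9, 109, 47.5, 84.9 and 13.2 CPM in cdKO samples. Cdt1, its partner, had 44.7, 99.4, 81.8, 75.3 and 99.4 CPM in control and 72.4, 94.7, 55.9, 68.0 and 15.3 CPM in cdKO samples. Both were lowest in cdKO replicate 5, and the other 4 cdKO samples lay within the control range. The log2 fold change was -0.52 (standard error 0.49) for Cdc6 and -0.39 (standard error 0.41) for Cdt1, with exact permutation p = 0.333 and 0.341. Without cdKO replicate 5 they were -0.24 and -0.13, and without control replicate 5 -0.16 and -0.30.

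Genes for nucleotide supply and the fork behaved differently from each other in the same sample. Rrm2, the small subunit of ribonucleotide reductase, was the most abundant S phase member per length (297 CPM per kb). It had 486, 797, 1066, 781 and 1926 CPM in control and 501, 963, 547, 911 and 264 CPM in cdKO samples. Control replicate 5 was highest and cdKO replicate 5 lowest, and the log2 fold change of -0.67 (standard error 0.42) had an exact permutation p of 0.238. It was -0.45 without cdKO replicate 5 and -0.30 without control replicate 5. Rrm1, the large subunit, had 350 to 599 CPM in 9 samples and 87.8 CPM in cdKO replicate 5. Pcna (chromosome 2, 132249162 to 132253314, minus strand), the sliding clamp of the polymerases, went the other way. Its values were 300, 277, 347, 225 and 739 CPM in control and 223, 479, 306, 327 and 733 CPM in cdKO samples, so replicate 5 of each group was highest (log2 fold change 0.13, standard error 0.40, exact permutation p = 0.730, and -0.16 without cdKO replicate 5). Tyms, for thymidylate synthase, was highest in the same 2 samples, with 371 and 442 CPM against 89.8 to 217 CPM in the other 8. Gins1, a subunit of the GINS complex of the fork, was likewise highest in cdKO replicate 5, at 105 CPM.

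Among cyclins E and the E2F factors no difference exceeded the spread. Ccne1 (cyclin E1) had 53.3, 100, 94.5, 65.7 and 189 CPM in control and 84.8, 109, 62.4, 101 and 34.4 CPM in cdKO samples (log2 fold change -0.36, standard error 0.39, exact permutation p = 0.476). The fold change was -0.16 without cdKO replicate 5 and 0.00 without control replicate 5. Ccne2 had 22.5 to 182 CPM in control and 34.4 to 118 CPM in cdKO samples, and 32.7% of its counts lay on bins shared with another gene. E2f1, an activator of S phase genes, ranged from 33.9 to 94.9 CPM in control and from 23.1 to 68.0 CPM in cdKO samples. E2f2 and the repressor E2f8 stayed at or below 10.51 CPM in every sample. In cdKO replicate 5, 15 of the 20 S phase genes had their lowest value, including all 3 E2F genes.

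**Figure D2:**
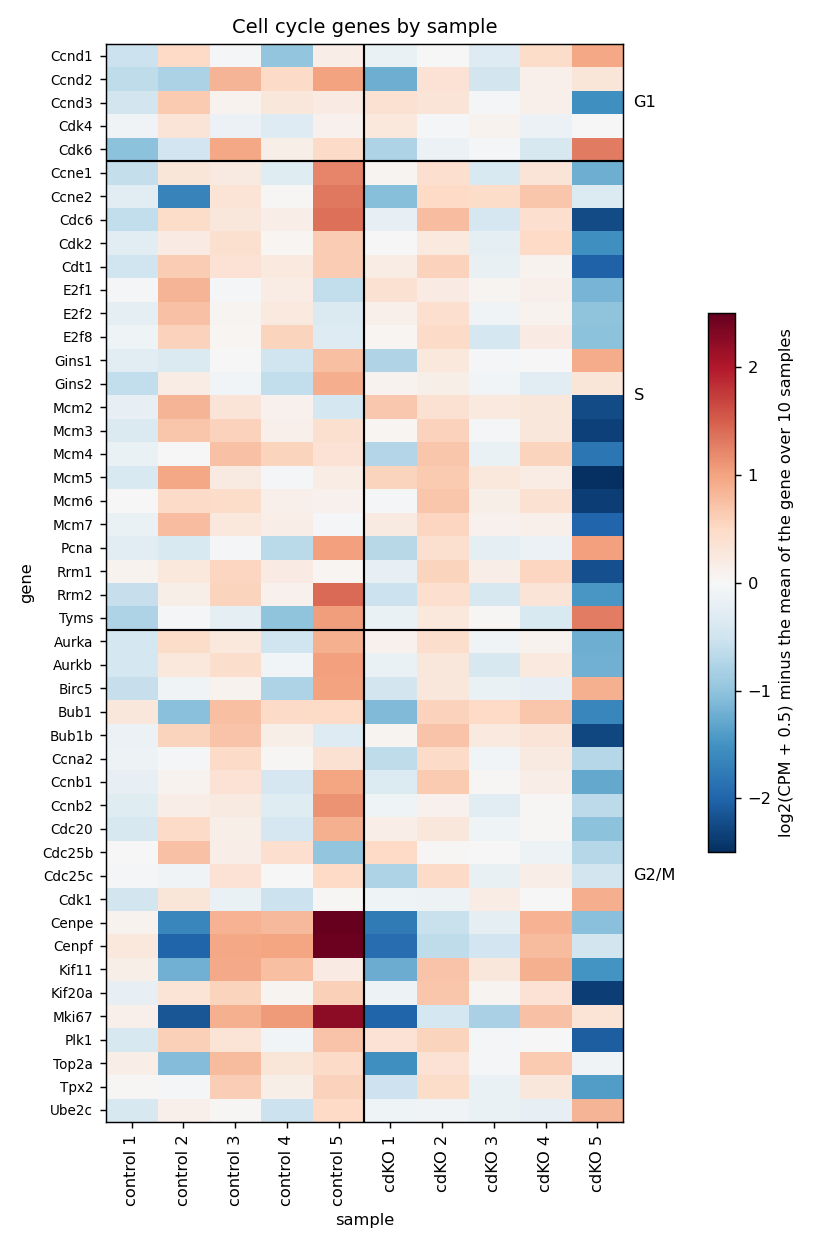
Level of each of the 46 genes in each sample, as log2(CPM + 0.5) minus the mean of the gene over the 10 samples (red above, blue below). The column of cdKO replicate 5 is blue for the MCM genes, Cdc6, Cdt1 and Rrm1 and red for Pcna, Tyms, Gins1, Birc5, Cdk1 and Ube2c; control replicate 2 and cdKO replicate 1 are blue for Cenpe, Cenpf, Mki67, Kif11, Bub1 and Top2a.

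In G2/M, the cyclin B group varied with the sample more than with the genotype. Cdk1 (chromosome 10, 69335146 to 69352938, minus strand), the kinase of mitotic entry, had 92.9, 160, 115, 88.1 and 131 CPM in control and 119, 117, 147, 128 and 241 CPM in cdKO replicates 1 to 5. The cdKO values were inside the control range but for replicate 5, which was highest of all (log2 fold change 0.36, standard error 0.29, exact permutation p = 0.230, and 0.13 without that sample). Counted over the last 1000 bases of each gene, Cdk1 was 0.79 higher on the log2 scale (standard error 0.33) and the only member with an unadjusted p under 0.05, at 0.0333. Its adjusted p was 0.998 (edgeR quasi-likelihood, Benjamini-Hochberg), beside 3.03% of genes on the higher side. Over these bases, the log2 fold change of Cdk1 was 0.71 (standard error 0.29) without cdKO replicate 5. Ccnb1 (cyclin B1, chromosome 13, 100778650 to 100786570, minus strand), which activates Cdk1, had 394, 485, 586, 339 and 902 CPM in control and 360, 715, 466, 513 and 188 CPM in cdKO samples. Here cdKO replicate 5 was lowest (log2 fold change -0.27, standard error 0.37, exact permutation p = 0.484). It was -0.06 without that sample and -0.01 without control replicate 5. Cyclin and kinase thus stood at opposite ends in cdKO replicate 5.

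Genes that end mitosis showed the same split. Cdc20, the activator of the anaphase-promoting complex, was the most abundant G2/M member per length (201 CPM per kb). It had 268, 492, 390, 265 and 656 CPM in control and 397, 431, 327, 360 and 173 CPM in cdKO samples (log2 fold change -0.29, standard error 0.34, exact permutation p = 0.452). The fold change was -0.12 without cdKO replicate 5 and -0.07 without control replicate 5. The range of the other cdKO samples was inside that of the controls, and cdKO replicate 5 was lowest. Ube2c, the ubiquitin-conjugating enzyme that works with the same complex, was highest in that sample, at 419 CPM against 159 to 328 CPM elsewhere. Plk1 and Bub1b, kinases of mitosis and of its checkpoint, were lowest there, at 34.7 and 15.2 CPM against 110 to 239 and 60.7 to 124 CPM.

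The largest differences between the groups were those of Cenpf, Cenpe and Mki67, G2/M genes of the kinetochore and of mitotic chromosomes. They have 15433, 8620 and 10061 counted exon bases. Top2a, with 9013, had a log2 fold change of -0.21. With exon length, the log2 fold change had r = -0.34 over all 17858 genes tested and -0.34 over the members (rho = -0.05). Without cdKO replicate 5 these were -0.17 and -0.44 (rho = 0.00). The part of length in these differences was not tested. Cenpf (chromosome 1, 189640606 to 189688086, minus strand), a kinetochore protein, had 52.4, 10.54, 85.7, 86.8 and 242 CPM in control and 11.4, 27.9, 31.2, 75.3 and 31.6 CPM in cdKO replicates 1 to 5. The cdKO values all lay inside the control range, whose upper end was control replicate 5 alone. The cdKO mean was 0.371 times the control mean, with a log2 fold change of -1.43 (standard error 0.65) and an unadjusted p of 0.0460 by edgeR. On log2 values, the exact two-sided permutation p was 0.222. Cenpe, the kinesin of the kinetochore, had 53.0, 15.8, 91.8, 88.2 and 304 CPM in control and 14.4, 33.9, 42.6, 91.6 and 24.0 CPM in cdKO samples. Again control replicate 5 was far above the rest, and the log2 fold change was -1.42 (standard error 0.66, unadjusted p = 0.0499 by edgeR, exact permutation p = 0.206). Without control replicate 5 the log2 fold changes were -0.73 for Cenpf and -0.59 for Cenpe, and in 7 of the 10 fits that left out 1 sample, this one included, neither gene had an unadjusted p under 0.05.

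Mki67 and Top2a are widely used to mark dividing cells. Mki67 (chromosome 7, 135689784 to 135716361, minus strand), which coats mitotic chromosomes, had 17.0, 3.15, 29.2, 32.8 and 75.0 CPM in control and 3.47, 11.3, 8.64, 26.1 and 19.9 CPM in cdKO samples. The lowest values were those of control replicate 2 and cdKO replicate 1, and the highest that of control replicate 5, 23.8 times the lowest. Its log2 fold change was -1.18 (standard error 0.67, exact permutation p = 0.341), and -0.56 (standard error 0.63) without control replicate 5. Top2a (chromosome 11, 98992943 to 99024189, minus strand), the topoisomerase that untangles sister chromatids, had 233, 98.5, 363, 256 and 289 CPM in control and 72.1, 267, 204, 330 and 196 CPM in cdKO samples. The same 2 samples were lowest, and the groups otherwise overlapped (log2 fold change -0.21, standard error 0.41, exact permutation p = 0.571). The other 14 G2/M members, Aurora kinases, Cdc25 phosphatases, cyclins A2 and B2, kinesins and spindle factors among them, had log2 fold changes between -0.49 (Aurkb) and 0.13 (Ube2c).

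Other genes of the same pathways gave the same result. The pathway lists of replication, mitosis, G1/S regulators, and CDK inhibitors with RB family genes held 93 further genes, of which 91 were tested. By edgeR, 0 passed after Benjamini-Hochberg adjustment, and 0 had an unadjusted p under 0.05. Values were negative for 28 of 33 replication, 32 of 37 mitosis and 11 of 13 G1/S genes, with medians of -0.20, -0.27 and -0.22. Without cdKO replicate 5 the medians were -0.08, -0.11 and -0.13. Values were then negative for 20 of 33 replication, 30 of 37 mitosis and 9 of 13 G1/S genes. Clspn, an adaptor of the replication checkpoint, and Knl1, a kinetochore scaffold, had the smallest p in the fit of all 10 samples. Their log2 fold changes were -0.88 (standard error 0.48, exact permutation p = 0.222) and -1.19 (standard error 0.65, exact permutation p = 0.405). Knl1 had 4.17 and 6.41 CPM in control replicate 2 and cdKO replicate 1 and 104 CPM in control replicate 5, the pattern of Cenpf.

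Most genes of the list of CDK inhibitors, which hold cells out of the cycle, and RB family genes lay on the other side. Of 8 tested genes of that list, 6 were positive, with a median log2 fold change of 0.46, which was 0.17 without cdKO replicate 5. Cdkn1c, for p57, the inhibitor of newborn spinal neurons, had 553, 705, 417, 400 and 399 CPM in control and 971, 315, 532, 580 and 635 CPM in cdKO samples. Its highest and its lowest value were both cdKO (log2 fold change 0.29, standard error 0.32, exact permutation p = 0.437). Cdkn1a, for p21, a target of p53, had 3.35 to 7.44 CPM in control samples, at most 5.87 CPM in cdKO replicates 1 to 4 and 26.1 CPM in cdKO replicate 5. Cdkn1b, for p27, had 3.39 to 7.82 CPM in control samples, 4.33 to 7.02 CPM in those 4 cdKO samples and 20.1 CPM in cdKO replicate 5. Cdkn2d, for p19, had 33.0 to 56.0 CPM in control, 39.9 to 71.3 CPM in those 4 and 148 CPM in cdKO replicate 5. Their log2 fold changes of 0.81, 0.72 and 0.62 (standard errors 0.51, 0.43 and 0.37) became -0.05, 0.17 and 0.17 without that sample.

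Rprm, for a protein that arrests cells in G2, is no member but was the only gene of all lists examined whose groups did not overlap. It had 8.79 to 14.2 CPM in control and 4.69 to 6.14 CPM in cdKO samples. The log2 fold change was -1.13 (standard error 0.27) with an exact permutation p of 0.00794, the smallest that 5 against 5 allow, and an adjusted p of 0.936 (edgeR quasi-likelihood, Benjamini-Hochberg). Its correlation with the mean of the members over the 10 samples was 0.34. It was named after its values were seen, and that p adds nothing to the lack of overlap for which it was picked. Groups did not overlap for 0.403% of all genes tested (0.224% lower in cdKO).

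Means over the lists put the same values in 1 number per sample. The mean log2(CPM + 0.5) of the 46 members was 6.52, 6.80, 7.14, 6.80 and 7.39 in control and 6.45, 7.11, 6.70, 7.01 and 5.92 in cdKO replicates 1 to 5, or 6.93 ± 0.34 and 6.64 ± 0.48 (SD, n = 5 each). The difference of -0.29 was smaller than either SD. Without cdKO replicate 5 the cdKO mean was 6.82 ± 0.30 (SD, n = 4). The S list averaged 7.02 ± 0.31 in control and 6.75 ± 0.64 in cdKO samples (SD, n = 5 each), and 7.01 ± 0.26 in the 4 other cdKO samples. G2/M genes averaged 6.93 ± 0.43 and 6.56 ± 0.49, and G1 genes 6.60 ± 0.38 and 6.54 ± 0.20. S minus G2/M, a measure of the balance of the 2 lists, was 0.09 ± 0.33 in control and 0.19 ± 0.31 in cdKO samples. It was highest in control replicate 2 (0.67) and cdKO replicate 1 (0.60). In these samples Bub1, Cenpe, Cenpf, Kif11, Mki67 and Top2a were lower than in each other sample but cdKO replicate 5. The group difference of 0.10 became -0.01 without cdKO replicate 1 and 0.24 without control replicate 2. The balance also moved with the shift of counts towards the 3′ end (r = -0.57, rho = -0.89 over 10 samples, and r = -0.85 without cdKO replicate 5), whose part in it was not tested.

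**Figure D3:**
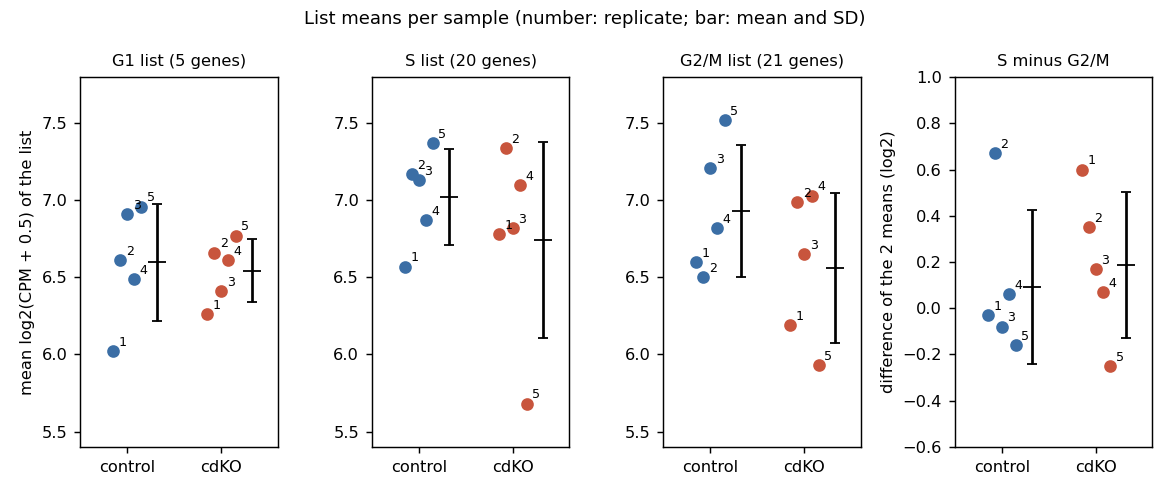
Mean log2(CPM + 0.5) of the G1, S and G2/M lists in each sample, and the difference of S and G2/M, by group; points are samples with their replicate number, and bars give mean and SD of 5 samples. In the S list cdKO replicate 5 lies at 5.68 and the other cdKO samples at 6.78 to 7.34, within the control range of 6.57 to 7.37.

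Across samples, many members of the S and G2/M lists moved together. Over the 10 samples, the median Pearson correlation of log2 values was 0.65 for 190 pairs of S genes, 0.42 for 210 pairs of G2/M genes, 0.44 for 420 pairs of an S and a G2/M gene, and -0.03 for 10 pairs of G1 genes. The mean of the G1 list had r = 0.24 with that of the S list and 0.47 with that of the G2/M list, but 0.90 and 0.80 without cdKO replicate 5, so its low values over all samples rest on that library. Members paired with tested genes outside these lists had a median of 0.00. All points share the library, its scaling and its depth. Rrm2 (0.97), Aurkb (0.95), Tpx2 (0.95), Ccnb1 (0.94) and Cdc6 (0.94) followed the mean of the other members most closely. At the other end were Cdk1 (-0.49), Ube2c (-0.24), Ccnd1 (-0.23), Tyms (-0.16) and Cdk4 (-0.14). With the other G2/M members, Cdk1 had a median correlation of -0.37, which was 0.15 without cdKO replicate 5.

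The 10 tested genes outside the lists with the highest Pearson correlation to the mean of the members were Exo1 (0.981), Trip13 (0.980), Bora (0.979), Tacc3 (0.974), Mtap (0.973), Ccdc43 (0.973), Prps1l3 (0.969), Ppef2 (0.967), Fignl1 (0.965) and Rbbp7 (0.964), each over 10 samples. They had 0.93 to 0.97 without cdKO replicate 5. Ppef2 averaged only 0.346 CPM.

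Levels of the members were set beside those of marker genes in the same libraries, as a description over 10 samples. The mean of 13 neuronal genes, Tubb3, Stmn2 and Mapt among them, ran opposite to the mean of the members (Pearson r = -0.84, Spearman rho = -0.85). It was -0.83 within groups, -0.83 without cdKO replicate 5, and -0.79 without the 2 samples farthest from the neuronal median. Over the last 1000 bases of each gene r was -0.83, with -0.58 without control replicate 5 and cdKO replicate 5, the 2 farthest in that count. Control replicate 5 had the highest member mean and the lowest neuronal mean (7.39 and 5.67), and cdKO replicate 5 the lowest member and the highest neuronal mean (5.92 and 7.91). Single neuronal genes ranged from -0.95 for Stmn2 to 0.31 for Elavl4. Summed over the list, neuronal genes had 1196 to 5938 CPM in control and 2060 to 6785 CPM in cdKO samples.

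The relation with progenitor genes depended on cdKO replicate 5 and on how counts were scaled and summed. Over all 10 samples, the mean of 15 progenitor genes and that of the members had r = 0.03 (rho = 0.32), and without cdKO replicate 5 r = 0.77 (rho = 0.82). Without the 2 farthest samples it was 0.67. With all samples kept, r was 0.56 with library size alone as scaling, 0.41 over the last 1000 bases of each gene and 0.44 over its highest bin. cdKO replicate 5 had the highest progenitor mean of all samples (5.95 against 5.16 to 5.80) together with the lowest member mean. Within the list, Olig2, the gene whose locus drives Cre, had r = 0.92 (0.89 without cdKO replicate 5) and Pax6 0.61 (0.86), whereas Vim had -0.91 (-0.81) and Fabp7 -0.90 (-0.81). MN genes, 11 in number, had r = -0.22 (rho = -0.47) and, without cdKO replicate 5, -0.89 (rho = -0.87). Over the last 1000 bases r was -0.54, with -0.78 without cdKO replicate 5. It was 0.07 there without control replicate 5 and cdKO replicate 2, the samples farthest from the MN median. Single MN genes ranged from -0.86 for Prph to 0.60 for Isl1, and from -0.94 to 0.60 for the same genes without cdKO replicate 5. The mean of 10 genes switched on as cells leave the cycle had r = 0.43 (rho = 0.59). It was 0.78 (rho = 0.80) without cdKO replicate 5 and 0.12 without the 2 samples farthest from the median of that mean. Single genes of this list ranged from -0.72 for Hes6 to 0.76 for Neurog2, with Cdkn1c at -0.62.

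**Figure D4:**
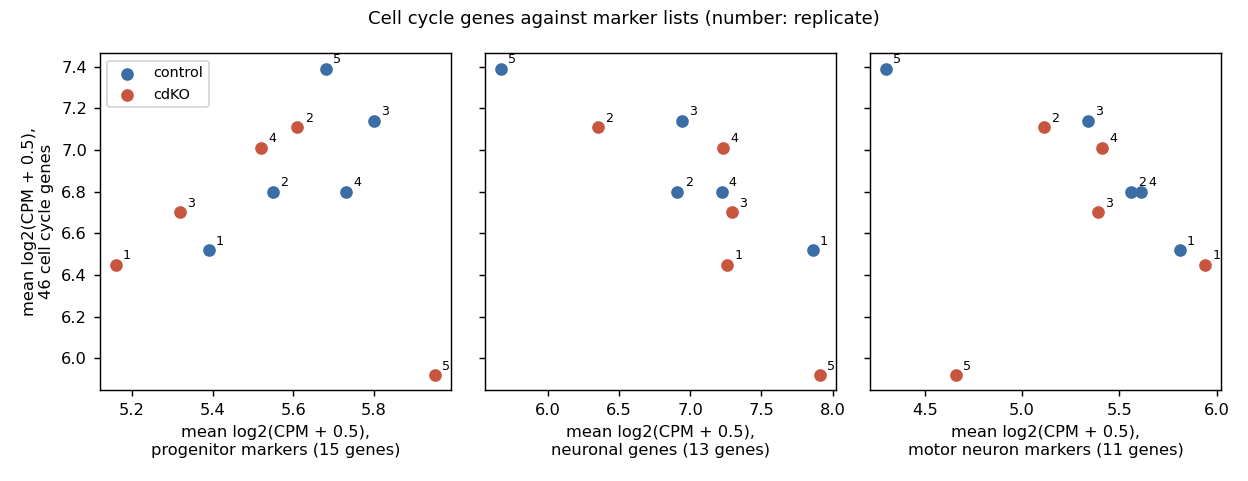
Mean log2(CPM + 0.5) of the 46 cell cycle genes (y axis) against that of progenitor, neuronal and MN marker lists (x axes), with 1 point per sample, numbered by replicate. The points fall from upper left to lower right for neuronal genes, and cdKO replicate 5 lies at the bottom of each panel, at 5.92.

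Markers of other cell types were counted as well. The 12 erythroid genes summed to 1.45 to 19.5 CPM in control and 3.18 to 66.5 CPM in cdKO samples, highest in cdKO replicates 5 and 3 (66.5 and 55.2 CPM). Gata1 and Klf1, the transcription factors that define red cell precursors, had no count in at least 1 sample. The mean log2(CPM + 0.5) of the 12 genes had r = -0.79 (rho = -0.81) with that of the members. The r and rho below are likewise of such means, not of sums. The 12 mesenchyme genes summed to 9.99 to 23.3 CPM in control and 15.1 to 26.8 CPM in cdKO samples (r = -0.53, rho = -0.67), with Foxc2, Lum and Prrx1 at 0 in some samples. Endothelial genes (8) stayed at or below 3.72 CPM and macrophage genes (8) at or below 6.90 CPM in sum. Genes of neural crest and sensory neurons (7) summed to 44.7 to 64.6 CPM in control and 21.8 to 57.5 CPM in cdKO samples (r = 0.16). Genes of V3 INs and their p3 progenitors (5) belong to cells that the sort can keep. They summed to 24.4 to 98.9 CPM in control and 23.5 to 38.9 CPM in cdKO samples. Their mean had r = -0.71 (rho = -0.67), but sums and means ranked the samples differently. The highest sum, in control replicate 5, went with a mean of 1.57, near the low end of 1.48 to 2.56. The highest cdKO sum, in replicate 2, went with the lowest mean, 1.48. The part of all these cell types in the levels of the cell cycle genes was not tested.

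cdKO replicate 5 also stood apart as a library. Counts were present on 198569 of its exon bins and on 243970 to 271591 in the other samples, and its counts lay further towards the 3′ end, by 0.0736 of the gene length relative to the mean of all samples (median of 9403 genes), against -0.0150 to 0.00200 elsewhere. In it 28 of 46 members (60.9%) had their lowest value, a place it held for 28.4% of all genes tested. By contrast, 20 members (43.5%) were highest in control replicate 5, as were 18.6% of all genes. Counted over the last 1000 bases alone, the member mean of cdKO replicate 5 was the lowest by a small margin, at 5.00 against 5.07 in cdKO replicate 1 and up to 6.02 elsewhere. Its S mean was lowest there (4.84 against 5.22 to 5.85), but its G2/M mean was not (4.80 against 4.69 in cdKO replicate 1). Over all exon bins, 6 of 46 members, Ccnd1, Cdk6, Gins1, Tyms, Cdk1 and Ube2c, were highest in cdKO replicate 5, as were 5278 of 17858 genes tested. The part of library quality in these values was not tested.

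Control replicate 2 and cdKO replicate 1 differed from the others by base composition. In them the deviation of a member from its own mean increased with the GC content of its longest transcript (r = 0.74 and 0.76 over 46 genes, and 0.58 and 0.56 over 17814 tested genes), while r lay between -0.51 and 0.02 for the members in the other 8 samples. The 23 members of lower GC content averaged -0.50 in control replicate 2 and -0.81 in cdKO replicate 1, and the 23 of higher GC content 0.53 and 0.15. With the log2 length of the longest transcript, r was -0.47 and -0.49 for the members in these 2 samples. Over all tested genes it was -0.10 and -0.15. Ccnd2, Ccne2, Bub1, Cenpe, Cenpf, Kif11, Mki67 and Top2a had lower values in these 2 samples than in each of the 7 others, cdKO replicate 5 left aside. Of these, Ccne2 has 36.3% GC, Bub1 41.0%, Kif11 42.2%, Cenpe 42.9%, Cenpf 43.3%, Top2a 43.4%, Mki67 46.6% and Ccnd2 47.1%, with a median of 48.6% over the members and 49.8% over all tested genes. In the same 2 samples, 2 G1, 2 S and 1 G2/M members instead had higher values than each of those 7 others. Shares over all tested genes are not given for these patterns. The part of base composition in the S minus G2/M balance was not tested. A fit that left out these 2 samples and cdKO replicate 5 was chosen after seeing the data and kept 7 samples. In it the median log2 fold change of the members was 0.01, and 21 of 46 were negative. cdKO replicates 1 and 5 had the lowest member means of all samples, so the rise of that median follows in part from the choice. Cenpf (-1.36, standard error 0.55) and Mki67 (-1.30, standard error 0.54) had an unadjusted p under 0.05 by edgeR in this fit, beside 2.47% of all genes on the lower side.

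**Figure D5:**
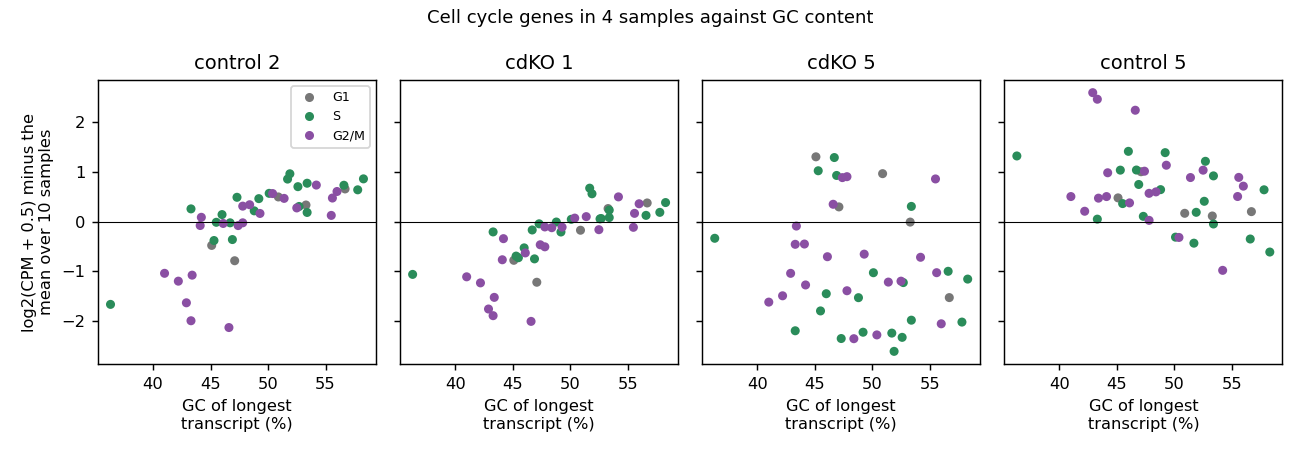
Deviation of each of the 46 genes from its own mean over 10 samples (log2 scale, y axis) against the GC content of its longest transcript in percent (x axis), in 4 samples. In control replicate 2 and cdKO replicate 1 points rise with GC content (r = 0.74 and 0.76); in cdKO replicate 5 and control replicate 5 r is -0.19 and -0.41.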

How the data were processed

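RNA-seq was analysed in 10 samples of FACS-sorted YFP-positive cells, 5 control and 5 cdKO, grouped by genotype as given in the labels. An ultra-low input library is described in the methods, whereas the labels name a NEBNext Ultra RNA kit. The submitters' processing notes list Trimmomatic 0.36, STAR 2.5.2b, Subread 1.5.2 and the build GRCm38. The authors deposited, per sample, whole-number counts on 425461 exon bins, not normalized. The 7359 bins of at most 5 bases flanked by touching bins had a median of 1.05 times the count of their lower neighbour, so a read was counted on each bin it overlapped, and 16 of 16 intervals listed on both strands had equal counts, so strand was not used. Of 49644 gene identifiers, 49384 were found in GENCODE M21, with which bins were summed to genes, and 1674 bins (0.368% of counts) that belonged to no single gene were left out. Sgol1 was taken as Sgo1.

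Genes were filtered with filterByExpr (minimum count 10), scaled by TMM and compared with edgeR 4.0.16 (R 4.3.3) by the quasi-likelihood test with Benjamini-Hochberg adjustment (threshold 0.05). No covariate was used. Single genes were also compared on log2(CPM + 0.5) by an exact two-sided permutation test over 252 arrangements. The replicate number, whose meaning the labels do not give, was not used as a block. No pair of samples within a group agreed within sampling noise (chi-square per degree of freedom at least 126). A floor of 3 counts was 0.0285 to 0.0587 CPM and covers counting error only. The common biological coefficient of variation was 0.54. The scripts were tested on simulated data with known changes.

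The 46 members and all gene lists were chosen with earlier results of these data known. Named in full were 8 canonical genes, the most abundant gene per kb and the 3 genes of smallest p in each list, the 3 pathway genes of smallest p with Cdkn1a, Cdkn1b and Cdkn1c, the 10 genes most alike to the member mean, and landmark genes. Alternatives were DESeq2 1.42.0 and its size factors, limma-voom (limma 3.58.1), library size alone, other filters, the replicate block, the progenitor mean as covariate, other choices of bins and each sample left out; 2 alternatives were chosen after seeing the data. The file names number some samples differently from the labels, and the sample descriptions give a different stage for each sample; the labels' replicate numbers and the stage of the titles were used.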

Additional observations from a re-analysis of the deposited data

Results flagged for a closer look

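In 4 of 66 groups of 5 samples examined, 1 sample lay far from the other 4 of its group, where chance alone gives about 3.3. Cdk1 had 241 CPM in cdKO replicate 5 and 117 to 147 CPM in the other cdKO samples. Pcna had 739 CPM in control replicate 5 and 225 to 347 CPM in the other control samples. Cenpe had 304 CPM in control replicate 5 and 15.8 to 91.8 CPM in the others. The S minus G2/M difference was 0.67 in control replicate 2, whereas the other 4 control samples lay from -0.16 to 0.06.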

How the results depend on the processing

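The count of members with an adjusted p under 0.05 was 0 in every alternative run, as was that of the pathway genes, and the smallest adjusted p of a member was 0.584 (limma-voom with sample quality weights). The count of all genes past that threshold was 0 in edgeR, 1 with library size alone, 1 without a filter, 20 with DESeq2, 3 with limma-voom, 13 with limma-voom and quality weights, 1 over the last 1000 bases, 1 over the last 1000 bases without cdKO replicate 5, 1 with 3 libraries left out (control replicate 2, cdKO replicates 1 and 5), and between 0 and 4 with 1 sample left out (4 without control replicate 5, 1 without cdKO replicate 5). The 2 members with an unadjusted p under 0.05 became 1 with library size alone and 1 over the last 1000 bases (Cdk1, higher, also 1 without cdKO replicate 5). They became 0 with limma-voom, 0 with quality weights, 0 with the progenitor covariate and 0 with the replicate block, and 0 to 3 with 1 sample left out. The block, for numbers that samples share without a stated meaning, gave 460 genes with an unadjusted p under 0.05 against 891 without it and a member median of -0.30; neither Cenpf (-1.14) nor Cenpe (-1.06) kept its unadjusted p under 0.05. Deviations of same-numbered samples had correlations of -0.316 to 0.429, 3 of 5 over 0.1, and 4 of 10 samples correlated best with their own number. Library size alone moved the median of all genes to -0.15 and that of the members to -0.31.

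Several fold changes changed sign. Pcna was -0.05 with library size alone, -0.04 over the last 1000 bases (-0.11 there without cdKO replicate 5), -0.10 with 3 libraries left out, and -0.16 to 0.53 with 1 sample left out. Cdk4 was -0.09 with library size alone, 0.00 with the progenitor covariate, -0.06 over the highest bin, and -0.05 to 0.14 with 1 sample left out. Mcm2 was 0.08 with quality weights, 0.17 over the last 1000 bases without cdKO replicate 5, 0.33 with 3 libraries left out, and -0.23 to 0.21 with 1 sample left out (0.16 without control replicate 2, 0.21 without cdKO replicate 5). Ccnd3 was 0.02, 0.04 and 0.09 under the same 3 settings, and -0.34 to 0.01 with 1 sample left out. Ccnb1 was 0.04 with quality weights and 0.04 with 3 libraries left out, Cdc20 0.03 with quality weights, Top2a -0.42 to 0.01 with 1 sample left out, and Cdkn1a -0.05 to 1 with 1 sample left out, -0.10 over the last 1000 bases without cdKO replicate 5 and -0.10 with 3 libraries left out. The correlation of members with progenitor genes, 0.03, was 0.56 with library size alone, 0.41 over the last 1000 bases, 0.44 over the highest bin, 0.67 with 3 libraries left out, and -0.19 to 0.77 with 1 sample left out (0.77 without cdKO replicate 5). The cause of these changes was not tested.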
